A study of Mus musculus with 3 samples.

Results

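Limbal cells of the mouse corneal epithelium were divided by how much of their mRNA came from 3 keratins of mucosal epithelia, Krt4, Krt13 and Krt19. The members were selected on a class label and on measured values, the UMIs of these keratins. They were the 727 cells that the authors' deposited annotation put in the class LSC and that held 2000 or more unique molecular identifiers (UMIs, 1 per captured transcript). They came out of 737 LSC cells and 38111 cells in all. For each cell, k was the share of its UMIs that belonged to the 3 keratins. The 171 cells with k of 15 or more per 10000 UMIs are called high, and the 556 cells below that are called low. The 3 keratins chose the groups, so their values are given as a description with no test.

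The limbus is the rim between the cornea and the conjunctiva, and its basal layer holds the stem cells that renew the corneal epithelium. Cells that leave it towards the centre make the corneal keratin Krt12, while the conjunctiva next to it is a wet mucosal epithelium with its own stem cells. Krt4 and Krt13 pair in the upper layers of wet stratified epithelia, and Krt19 is a small type I keratin of simple and mucosal epithelia. Gpha2, a glycoprotein hormone subunit, is known as a marker of quiescent outer limbal cells.

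The cells came from C57BL/6J mice in homeostasis, with no treatment or genetic change named. Library 1 was made from 4 corneas of 2 males aged 20 weeks, library 2 from 4 corneas of 2 females aged 11 weeks and library 3 from 7 corneas of 7 males aged 10 weeks. Each library pooled its animals, and the epithelium was freed with an enzyme before a droplet kit counted the 3′ ends of transcripts. High and low cells were always compared within a library, so age, sex and pooling were the same on both sides. The class name LSC is not spelled out in the labels and was read as limbal from its markers. In CPM (UMIs scaled to a total of 1000000), Gpha2 was at 3738 ± 21.3 (SD over 3 libraries, as are all ± values of levels) in low cells, against 115 ± 42.4 in basal and 88.5 ± 37.4 in conjunctival cells. High cells stood at 909 ± 452, below the low cells and above the other classes. No cell barcode was shared between libraries among the 727 members, although 32 to 57 barcodes were shared by pairs of libraries in the whole table.

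The high group made up 20.4% of the members in library 1 (33 of 162; exact 95% binomial interval 14.5 to 27.4), 23.7% in library 2 (82 of 346; 19.3 to 28.5) and 25.6% in library 3 (56 of 219; 19.9 to 31.9). These intervals overlap and cover counting error only. The median k was 43.6 per 10000 in high cells and 1.13 in low cells, of which 215 had no UMI of any of the 3 keratins. There was no empty gap at the dividing line. The nearest cells stood at 15.1, 15.2 and 15.5 per 10000 inside it and at 14.7, 14.5 and 14.4 outside, and 103 cells lay between 7.5 and 30. The groups are therefore described as ranges of one measure, and whether they hold distinct types was not tested.

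**Figure D1:**
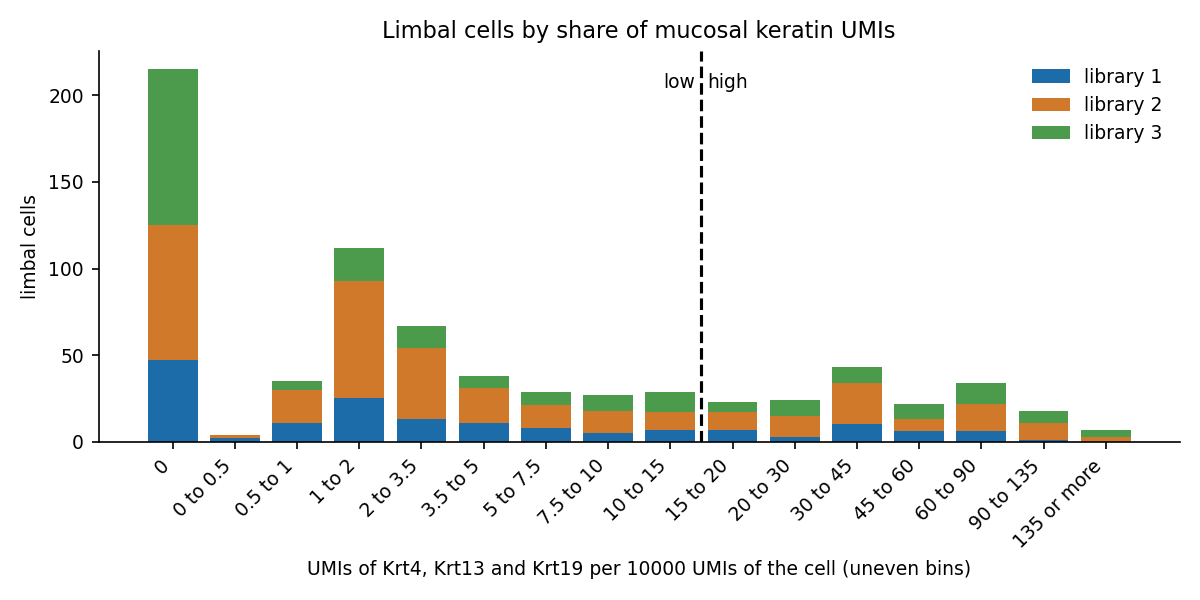
Number of limbal cells (y axis) by UMIs of Krt4, Krt13 and Krt19 per 10000 UMIs of the cell (x axis, uneven bins), stacked by library. The dashed line marks the division at 15; 215 cells stand at 0, and the 103 cells between 7.5 and 30 show no gap at the line.

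Most high cells held all 3 keratins at once (121 of 171). Krt4 UMIs were present in 165 of them, Krt13 in 162 and Krt19 in 131. Krt4 (chromosome 15, 101918535 to 101924735, GRCm38) stood at 1118, 2263 and 1493 CPM in the high cells of libraries 1 to 3 and at 127, 138 and 141 in the low cells. Krt13 (chromosome 11, 100117327 to 100121566) was at 2163, 2371 and 2751 CPM against 102, 80.6 and 97.5. Krt19 (chromosome 11, 100140810 to 100148665) was at 841, 870 and 1586 CPM against 28.9, 15.1 and 19.9. High cells thus held less of each than conjunctival cells, whose means were 3236 ± 866, 6557 ± 391 and 3168 ± 101.3 CPM. Immune cells, which should lack these keratins, showed 41.4 ± 17.5 CPM of Krt4, 108 ± 66.9 of Krt13 and 4.08 ± 7.07 of Krt19, so the Krt13 level of low cells was no higher than this background.

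Cells rich in 1 of the keratins were also richer in the other two, given here as a description. Where cells were divided by Krt4 alone, at 5 UMIs per 10000, the 186 cells with it held 996, 845 and 1532 CPM of Krt19 and the 541 without it 80.7, 52.6 and 160.3. Divided by Krt13 alone, the 164 cells with it held 1051, 2343 and 1403 CPM of Krt4 and the 563 without it 169, 273 and 233. Divided by Krt19 alone, the 95 cells with it held 2036, 2255 and 2099 CPM of Krt13 and the 632 without it 622, 583 and 692. The values of the divided groups did not overlap in any of these splits, for which the share of all genes without overlap was not taken. In the division by all 3 keratins that share was 37.2% of tested genes.

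High cells were deeper and more often carried signs of 2 cells in 1 droplet or of another class. Median UMIs per cell were 16216, 12948 and 8321 in the high cells of libraries 1 to 3 and 9535, 8775 and 5854 in the low cells. A doublet score was computed as the share of artificial cell pairs among a cell's 40 nearest neighbours, with the 3 keratins left out. The share of cells in the top range of scores, sized by an expected 0.8% of doublets per 1000 cells, was 30.3%, 39.0% and 37.5% in high cells and 12.4%, 6.82% and 16.6% in low cells. The share over 1.5 times the median UMIs of limbal cells (deep cells below) was 63.6%, 47.6% and 39.3% against 13.2%, 15.2% and 15.95%. All these differences had the same direction in 3 of 3 libraries, where the exact two-sided sign-flip test gives p = 0.25, the smallest it can give.

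Whole profiles, without the 3 keratins, were also compared with the mean profile of every class in the other libraries. Among high cells 122 were closest to the limbal class, 31 to the conjunctival class and 18 to wing cells, the middle layer of the corneal epithelium. Among low cells 509 were closest to the limbal class, 28 to basal, 11 to TAC1, 5 to wing and 3 to TAC2 cells, and none to the conjunctival class. The share closer to another class (stray cells below) was 24.2%, 15.9% and 50% (28 of 56) in high cells of libraries 1 to 3 and 6.20%, 6.44% and 13.5% in low cells. Without top doublet scores, deep or stray cells, 63 of 171 high and 431 of 556 low cells remained. This stricter comparison was added after the data were seen and is given beside the results.

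**Figure D2:**
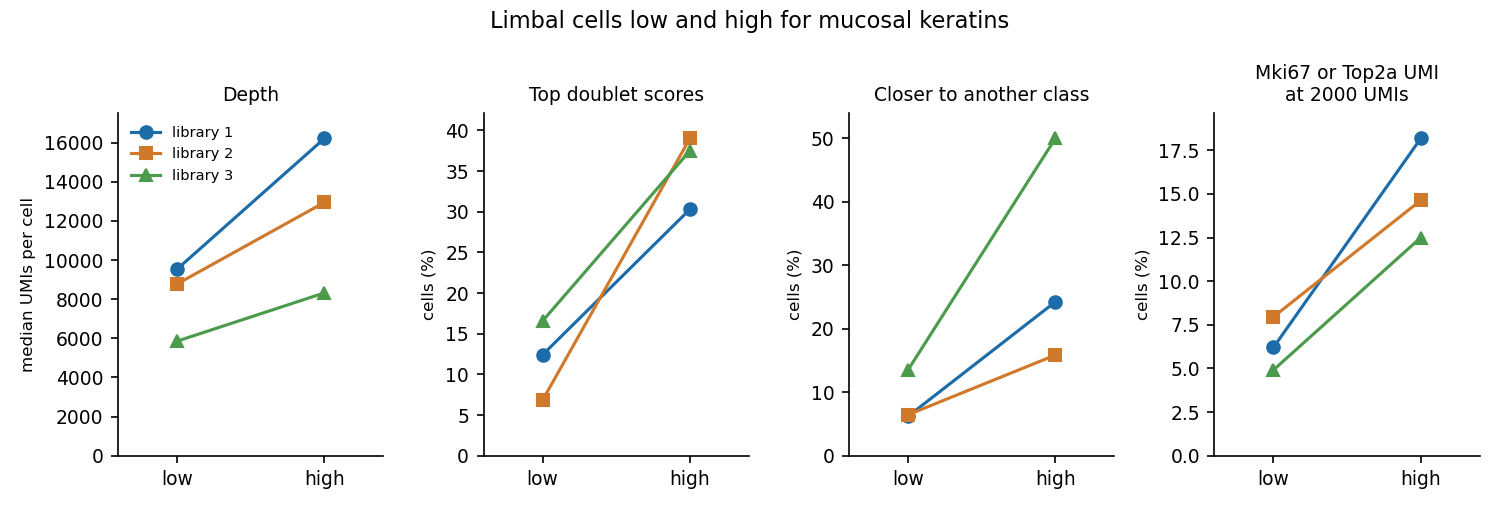
Each panel gives 1 value per library (y axes: UMIs or percent of cells) for low and high limbal cells, joined by a line. From left: median depth, top doublet scores, profile closer to another class, and cells with a UMI of Mki67 or Top2a at 2000 UMIs per cell; every line rises from low to high.

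Markers of blood cells were at or near 0 in both groups. Ptprc, Lyz2 and Tyrobp, which define blood cells, had 0 of the 3121099 UMIs of high cells, which allows up to 0.961 CPM, and the 6 immune markers in the table summed to 0, 4.31 and 1.63 CPM. The 6 superficial markers summed to 3682, 2275 and 3305 CPM in high cells and 1579, 999.98 and 1487 in low cells, with none of the 6 at 0. This sum was 7511 ± 225 in basal and 11588 ± 595 in wing cells, so it does not mark superficial cells alone. The 8 conjunctival markers, which include the 3 keratins, summed to 6526, 9944 and 8166 CPM against 873, 771 and 804. The 3 keratins chose the groups, so the rule itself set part of this contrast. Krt7, Krt8, Krt6a, Muc1 and Cldn4, the other members, are given singly below. Goblet cell genes stood at 76.0, 59.7 and 112 CPM in high cells and 30.2, 25.3 and 38.8 in low cells, while Spdef, Tff1 and Foxa3 were at 0 in both. Dcn, the 1 of 6 markers of stromal keratocytes in the table, was at 1.14, 2.46 and 0 CPM in high and 19.5, 13.2 and 13.5 in low cells, without overlap (as was so for 37.2% of all tested genes). The 3 of 5 lacrimal and meibomian gland genes in the table summed to 125, 37.5 and 86.3 CPM against 82.6, 31.8 and 101.1, and the 4 epidermal genes to 65.8, 51.7 and 50.5 against 37.6, 31.4 and 42.4. Mitochondrial UMIs were 2.12%, 1.84% and 2.79% in high and 2.58%, 2.26% and 2.94% in low cells. The part of these markers, depth, doublets, stray cells and free RNA in each difference below was not tested, apart from the stricter comparison.

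Summed per library and tested with the library as a block (edgeR's quasi-likelihood test with Benjamini-Hochberg adjustment, threshold 0.05), 2860 of 8307 genes differed between high and low cells (percent called 34.4). Of these 1508 were higher in high cells (18.2%) and 1352 lower (16.3%), and the median log2 fold change over all tested genes was -0.04. DESeq2 called 1066, of which 696 were higher and 370 lower, so its split leaned further to higher genes. It called 8.38% of genes higher and 4.45% lower. Among the 63 and 431 cells without any of the 3 marks, 893 of 4818 genes passed (9.71% higher and 8.82% lower), and 804 of the 2860 passed again in the same direction. Fewer cells stood behind that fit, and 1859 of the 1953 genes tested in both kept their direction. Without top doublet scores 16.8% of 6547 genes were higher and 14.7% lower, and without deep cells 12.1% of 5613 were higher and 10.7% lower. Counts of gene lists in these fits are to be read against these shares.

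The 15 genes with the largest rise in high cells under the naming rule were Cyp2a5, Enpp3, Upp1, Alox15, Nccrp1, Tmprss4, Prss27, Krt80, Ceacam1, Akr1b7, Ifit1bl1, Muc4, Trp53inp2, Pglyrp1 and Gsto1. Values below are CPM scaled by TMM, for libraries 1 to 3. The ± of a log2 fold change is a standard error derived from the F statistic of the edgeR test. It is not the SD of the fold changes over libraries. Gsto1, a glutathione transferase that reduces oxidised thiols, was at 16978, 14239 and 18176 in high cells and 2683, 1682 and 2534 in low cells (log2 fold change 2.86 ± 0.08, edgeR adjusted p = 6.8e-270). It was among the more abundant transcripts of the high cells, and the groups were far apart in every library. Krt80, a keratin of differentiating epithelia, was at 160.2, 163 and 142 against 28.1, 7.73 and 12.96 (log2 fold change 3.39 ± 0.18, edgeR adjusted p = 8e-62). Upp1, which splits uridine, was at 225, 239 and 290.4 against 18.1, 8.12 and 17.6 (log2 fold change 4.20 ± 0.17, edgeR adjusted p = 1.7e-132). Both kept their call in the stricter comparison, at 3.27 and 3.72.

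Cyp2a5, a cytochrome P450, had one of the largest changes, with 484, 226 and 411 against 26.8, 1.55 and 20.4 (log2 fold change 4.75 ± 0.31, edgeR adjusted p = 8.6e-07). Enpp3, a surface enzyme that degrades extracellular nucleotides, was at 160.2, 96.5 and 189 against 10.04, 4.25 and 7.41 (log2 fold change 4.33 ± 0.21, edgeR adjusted p = 2.5e-90). Alox15, a lipoxygenase, was at 51.9, 106 and 15.02 against 2.68, 8.89 and 1.85 (log2 fold change 3.65 ± 0.26, edgeR adjusted p = 3.9e-41). For these 3 genes and for Ifit1bl1, Muc4, Prss27, Tmprss4 and Trp53inp2, the stricter comparison had too few UMIs for a test. Ceacam1, a cell adhesion molecule, rose by 3.34 ± 0.21 and Akr1b7, an aldo-keto reductase, by 3.32 ± 0.14, and in the stricter comparison by 2.61 and 2.51. Pglyrp1, which binds bacterial peptidoglycan, was at 1369, 1949 and 1597 against 269, 149.97 and 246, and passed narrowly (log2 fold change 2.92 ± 0.42, edgeR adjusted p = 0.048).

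One of these genes lost its change without deep cells. Nccrp1, a protein of stratified squamous epithelia, was at 619, 358 and 399 in high and 34.8, 22.03 and 67.6 in low cells (log2 fold change 3.59 ± 0.28, edgeR adjusted p = 5.1e-05). Its log2 fold change was -0.16 without deep cells and 0.25 in the stricter comparison (edgeR adjusted p = 0.81). The rise of 3.59 was thus not found in the smaller set without deep cells, which held 12, 43 and 34 high cells in libraries 1 to 3. The reason was not tested.

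**Figure D3:**
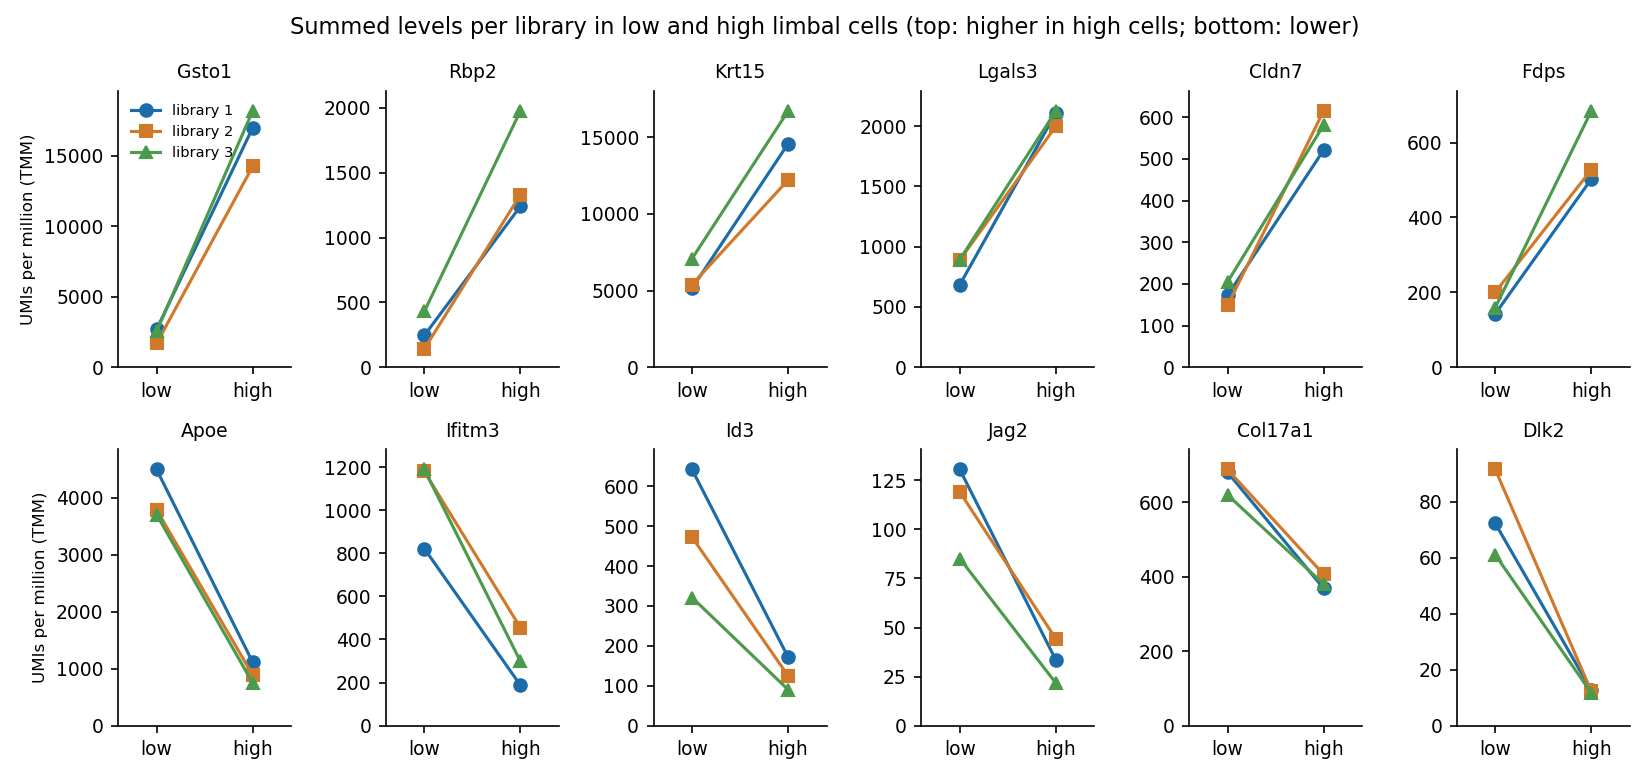
TMM-scaled CPM (y axes, each from 0) summed over low and high limbal cells, 1 line per library. The top row holds genes higher in high cells, such as Gsto1, and the bottom row genes lower, such as Apoe. In no panel do the high and low values overlap, as was so for 37.2% of all tested genes.

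The 15 genes with the largest fall included the secreted or matrix proteins Apoe, Kitl, Igfbp7, Sparc and Agrn and the signalling genes Id3, Dlk2 and Wnt10a. Apoe, which carries lipids, was at 1114, 889 and 749 in high cells and 4493, 3785 and 3702 in low cells (log2 fold change -2.13 ± 0.09, edgeR adjusted p = 4.5e-124). Id3, an inhibitor of helix-loop-helix factors that responds to BMP, was at 172, 125 and 90.1 against 642, 472 and 321 (log2 fold change -1.89 ± 0.11, edgeR adjusted p = 1.2e-58). Kitl, the ligand of the receptor Kit, was at 50.7, 33.8 and 48.4 against 213, 148 and 188 (log2 fold change -2.06 ± 0.15, edgeR adjusted p = 2.9e-40). High and low libraries did not overlap for any of them, as was so for 37.2% of all tested genes. The naming rule had picked them for large falls in 3 of 3 libraries. In the stricter comparison Apoe fell by 2.05, Id3 by 2.25 and Kitl by 2.84.

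Dlk2, a membrane protein related to Notch ligands, was at 12.7, 12.3 and 11.7 against 72.3, 91.6 and 61.1 (log2 fold change -2.68 ± 0.23, edgeR adjusted p = 2.2e-29). Rdh10, which oxidises retinol, was at 16.1, 11.7 and 13.4 against 84.4, 64.5 and 87.9 (log2 fold change -2.49 ± 0.22, edgeR adjusted p = 6.9e-27). Igfbp7, a secreted binding protein, was at 49.6, 70.1 and 10.02 against 192, 269.8 and 169, with library 3 lowest in high cells (log2 fold change -2.21 ± 0.15, edgeR adjusted p = 2.4e-41). The remaining genes named by the rule were Htra1, Pltp, Eid1, Agrn, Kcnq1ot1, Sparc, Fndc1, Wnt10a and Atp1b1. They fell by 1.82 to 2.14 in all cells, and each was again lower in the stricter comparison. Agrn, a heparan sulfate proteoglycan of basement membranes, then fell by 5.17. Wnt10a, a Wnt ligand, fell by 2.85.

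Limbal genes were lower as a group. Of 18 listed genes 14 were tested, of which 12 fell and 1 rose, with a median log2 fold change of -1.77 against -0.04 for all tested genes. The stricter comparison had 10 lower and 1 higher of 13, with a median of -1.23. Ifitm3, an interferon-induced membrane protein found in stem cells, was at 188, 455 and 299 in high and 821, 1179 and 1189 in low cells (log2 fold change -1.80 ± 0.10, edgeR adjusted p = 9.9e-66). Cd63, a tetraspanin of late endosomes, was at 53.01, 69.5 and 40.1 against 157, 157 and 172 (log2 fold change -1.50 ± 0.15, edgeR adjusted p = 3.8e-23), and Tgfb2, a growth factor, fell by 2.27 ± 0.45. The 1 gene of the list that rose was Ly6a, a membrane-anchored surface protein, at 247, 418 and 217 against 89.7, 204 and 104 (log2 fold change 1.17 ± 0.11, edgeR adjusted p = 3.9e-23). Earlier results of these data were known when the list was written, so its direction is no independent evidence.

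Gpha2 itself did not pass, although its groups did not overlap (as was so for 37.2% of all tested genes). It was at 847, 1394 and 512.4 in high and 3746, 3823 and 3809.99 in low cells (log2 fold change -2.13 ± 0.43, edgeR adjusted p = 0.095). Low libraries lay close together, while library 2 stood apart among the high ones. DESeq2 gave an adjusted p of 3.5e-06, and edgeR in the stricter comparison gave -2.60 with an adjusted p of 4.1e-16. By cell, 84 of 171 high cells and 514 of 556 low cells held more Gpha2 than the 95th percentile of conjunctival cells of their library. No Gpha2 UMI was found in 25 high and 16 low cells. At an equal 2000 UMIs per cell, the share of cells with a Gpha2 UMI was 56.2% ± 9.2 in high, 90.01% ± 3.4 in low, 12.9% ± 4.0 in conjunctival and 5.37% ± 0.75 in superficial cells, so the share of high cells lay above that background.

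Among keratins other than the 3 of the rule, Krt15 and Krt5 rose while Krt14 and Krt12 did not pass. Krt15, a keratin of limbal and conjunctival basal cells encoded on chromosome 11 (100131758 to 100135928) between Krt13 and Krt19, was at 14575, 12210.3 and 16712 in high and 5152, 5393 and 7082 in low cells (log2 fold change 1.31 ± 0.07, edgeR adjusted p = 1.4e-65). Of the 5 limbal markers Krt15 was the 1 that rose, while Cd63 and Ifitm3 fell and Gpha2 and Krt14 did not pass. In conjunctival cells it reached 25395 ± 2470 CPM. Krt5, the basal keratin of stratified epithelia, rose by 0.52 ± 0.08, and its partner Krt14 was at 1152, 3573 and 731 against 3736, 5994 and 4067, without passing (log2 fold change -1.61 ± 0.52, edgeR adjusted p = 0.19). Krt12 was at 6306, 4102 and 5650.2 against 4851, 4445 and 5713 (log2 fold change 0.08 ± 0.08, edgeR adjusted p = 0.45). It overlapped between the groups in all cells, but in the stricter comparison it was lower in high cells by 1.04 (edgeR adjusted p = 6.1e-11), and without top doublet scores by 1.85.

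Of 8 keratins listed as mucosal or of simple epithelia 5 were tested, 4 of which rose and 1 fell. Krt7, a keratin of simple and glandular epithelia, was at 177, 453 and 137 against 92.4, 133 and 65.7 (log2 fold change 1.36 ± 0.12, edgeR adjusted p = 3.4e-26). Krt8 was at 55.3, 69.5 and 38.4 against 14.7, 6.57 and 5.55 (log2 fold change 2.72 ± 0.24, edgeR adjusted p = 9.5e-28), yet its usual partner Krt18 moved the other way, with 4.61, 11.7 and 6.68 against 51.6, 22.8 and 20.4 (log2 fold change -1.80 ± 0.29, edgeR adjusted p = 8.1e-09). Krt78, a keratin of upper layers, rose by 2.18 ± 0.31. Of 4 wound keratins only Krt17 passed, by 0.47 ± 0.10. Krt6a was at 1969, 3749 and 2115 against 463, 386 and 460.1 without passing (log2 fold change 2.53 ± 0.39, edgeR adjusted p = 0.056), and Krt6b at 2076, 1662 and 2233 against 281, 68.03 and 171 (log2 fold change 3.70 ± 0.54, edgeR adjusted p = 0.057). DESeq2 called both higher, with adjusted p of 1.1e-09 and 1.3e-12.

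Genes of attachment to the basement membrane were lower in high cells. Of 15 tested genes of hemidesmosomes and the basement membrane 10 fell and 0 rose, with a median of -0.81, and in the stricter comparison 7 of 13 fell and 0 rose. Col17a1, the collagen that spans the hemidesmosome, was at 369, 406 and 381 in high and 681, 688 and 620.2 in low cells (log2 fold change -0.78 ± 0.10, edgeR adjusted p = 1.2e-13). Dst, which ties it to keratin filaments, was at 258, 258 and 194 against 511, 519 and 426 (log2 fold change -1.04 ± 0.11, edgeR adjusted p = 7e-21). Itgb4, the integrin chain of the same structure, fell by 0.95 ± 0.14, the laminin chain Lamb3 by 1.42 ± 0.21 and caveolin, Cav1, by 1.21 ± 0.17. Within the progenitor factors 7 of 11 fell and 2 rose. Hopx, also on this list and given below, was higher in high cells without passing. Trp63, the master factor of stratified epithelia, was at 124, 109 and 149 against 205, 219 and 222 (log2 fold change -0.79 ± 0.12, edgeR adjusted p = 8e-10), while Tcf7l2, a Wnt effector, fell by 0.92 ± 0.18. The 2 that rose were Hes1, a Notch target, by 0.62 ± 0.11 and Irf1, an interferon-responsive factor, by 1.20 ± 0.22; Irf1 was at -0.12 without top doublet scores and -0.18 without stray cells.

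Genes of junctions between cells moved the opposite way. Of 15 tight junction genes tested 10 rose and 1 fell (median 1.16), and in the stricter comparison 7 rose and 1 fell of 10. Cldn7, a claudin of lateral membranes, was at 521, 615 and 581 in high and 172, 148 and 205 in low cells (log2 fold change 1.74 ± 0.11, edgeR adjusted p = 3.4e-57). Cldn4 was at 186, 121 and 78.5 against 38.8, 22.8 and 26.8 (log2 fold change 2.17 ± 0.17, edgeR adjusted p = 5.9e-37), Cldn23 rose by 2.35 ± 0.24 and F11r, a junctional adhesion molecule, by 0.61 ± 0.13. The 1 that fell was Cldn1, by 1.04 ± 0.22. Of 11 desmosome genes 8 rose and 0 fell (median 0.86), and 7 of 10 rose in the stricter comparison. Perp, a desmosome protein induced by p63, was at 1898, 1679 and 1769 against 958, 932 and 1053 (log2 fold change 0.86 ± 0.09, edgeR adjusted p = 2.2e-20), and Dsc2, a desmosomal cadherin, at 341, 336 and 402 against 111, 95.5 and 149 (log2 fold change 1.63 ± 0.11, edgeR adjusted p = 1.1e-46). The plaque protein Dsp rose by 0.44 ± 0.10 and the cadherin Dsg1a by 1.27 ± 0.16.

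Genes of surface glycoproteins rose in all cells but were thinly measured in the stricter comparison. Of 16 genes listed as membrane mucins or their partners 11 were in the table and 6 passed the filter on low counts. These 6 rose, with a median of 2.20, and in the stricter comparison 1 of 2 did. The filter favoured a rise for members scarce in low cells, such as Muc1, so the count is no independent support. Muc4, a membrane mucin of the ocular surface, was at 463, 288 and 412 in high and 71.6, 19.7 and 45.4 in low cells (log2 fold change 3.20 ± 0.13, edgeR adjusted p = 7.6e-119). Muc1, another, was at 53.01, 47.97 and 26.7 against 4.69, 1.16 and 1.85 (log2 fold change 4.21 ± 0.33, edgeR adjusted p = 8.2e-35), from 140 UMIs in high and 12 in low cells. Lgals3, the lectin that binds mucins at the cell surface, was at 2110.1, 2000.4 and 2127 against 684, 889 and 893 (log2 fold change 1.35 ± 0.09, edgeR adjusted p = 4.2e-48) and rose by 1.4 in the stricter comparison. The 6 superficial markers summed to 3087 ± 729 CPM in high, 1355 ± 311 in low and 7511 ± 225 in basal cells. Their part in the mucin result was not tested.

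Of 14 genes of the cornified envelope, the protein shell of surface cells, 11 rose and 1 fell (median 2.11), and in the stricter comparison 6 of 8 rose and 0 fell. Cstb, a cysteine protease inhibitor, was at 535, 646 and 761 against 335, 376 and 571 (log2 fold change 0.63 ± 0.10, edgeR adjusted p = 3.1e-09), and Anxa9, an annexin, rose by 3.31 ± 0.39. Sprr1a, a cross-linked envelope protein, was at 2.30, 269.96 and 56.8 against 2.68, 12.8 and 0.926, so its call (log2 fold change 4.27 ± 0.24, edgeR adjusted p = 2.2e-59) rested on libraries 2 and 3. The small error and p-value of that fit do not show how far the libraries differed. Krtdap, the 1 that fell, was at 2.30, 35.7 and 0 against 2.01, 47.5 and 21.3, with groups that overlapped (log2 fold change -0.70 ± 0.26, edgeR adjusted p = 0.028). Asprv1, a skin protease, was at 3637, 2608 and 2612 against 523, 139 and 568 without passing (log2 fold change 3.06 ± 0.64, edgeR adjusted p = 0.1). Among 22 proteases and inhibitors 16 rose and 2 fell, with a median of 1.03, and in the stricter comparison 5 rose and 2 fell of 11. The serine proteases Tmprss4 and Prss27 rose by 3.53 ± 0.23 and 3.45 ± 0.21 and the inhibitor Spint2 by 0.47 ± 0.10. The 2 that fell were Wfdc2, by 0.69 ± 0.10, and Tmprss11a, by 0.74 ± 0.11.

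Genes of the Ly6 family, small membrane-bound or secreted proteins, depended on which cells were kept. Of 10 tested 6 rose and 1 fell in all cells, and 4 rose and 4 fell of 9 without top doublet scores. Lypd3 was at 285, 242 and 202 in high and 79.7, 96.2 and 99.04 in low cells (log2 fold change 1.41 ± 0.12, edgeR adjusted p = 6.3e-29) and rose by 2.26 in the stricter comparison. Lypd2 was at 3767, 2842 and 4535 against 1559, 1324 and 2007 (log2 fold change 1.18 ± 0.08, edgeR adjusted p = 1.7e-42), but fell by 1.151 in the stricter comparison (edgeR adjusted p = 1.9e-07). Slurp1, a secreted member abundant in the cornea, rose by 0.93 ± 0.09 in all cells and was at -1.16 without top doublet scores. Ly6d was at 6.91, 60.3 and 3.34 against 13.4, 170.1 and 32.4 (log2 fold change -1.57 ± 0.20, edgeR adjusted p = 4.6e-13), with groups that overlapped and with library 2 highest on both sides. Corneal identity genes showed the same dependence, with 9 of 14 higher and 2 lower in all cells and 5 higher and 4 lower in the stricter comparison. Aldh3a1, a crystallin of the cornea, was at 5778, 4002 and 5847 against 4551, 4299.6 and 3830.3 in all cells and fell by 0.56 in the stricter comparison (edgeR adjusted p = 0.00012).

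Transcription factors of epithelial differentiation were mixed in all cells and leaned one way in the stricter comparison. Of 21 tested 12 rose and 4 fell (median 0.45), and in the stricter comparison 11 rose and 0 fell of 19 (median 0.85). Elf3, an epithelial ETS factor, was at 359.6, 375 and 412 in high and 123, 79.2 and 114 in low cells (log2 fold change 1.90 ± 0.11, edgeR adjusted p = 2.6e-61). Klf4, which drives terminal differentiation, was at 322, 335 and 322 against 192, 157 and 162 (log2 fold change 0.95 ± 0.11, edgeR adjusted p = 5.8e-17). Elf5, related to Elf3, was at 13.8, 23.98 and 30.05 against 5.36, 4.25 and 5.55 (log2 fold change 2.17 ± 0.34, edgeR adjusted p = 2e-09), and Klf5 rose by 0.36 ± 0.10. Hopx, a homeodomain protein without DNA binding, was at 1772, 1431 and 1486 against 293, 58.4 and 185 and did not pass (log2 fold change 3.36 ± 0.64, edgeR adjusted p = 0.088), but did in the stricter comparison (2.87, edgeR adjusted p = 2.9e-21). Pax6, the master factor of the eye, was at 426, 339 and 374 against 445, 402 and 418 (log2 fold change -0.16 ± 0.10, edgeR adjusted p = 0.23).

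In the Notch pathway, by which neighbouring cells signal, 4 of 10 tested genes rose and 5 fell, and in the stricter comparison 3 rose and 1 fell of 8. The 1 that still fell was the ligand Jag2, which was at 33.4, 44.3 and 21.7 in high and 131, 119 and 85.2 in low cells (log2 fold change -1.69 ± 0.17, edgeR adjusted p = 1.8e-21), and fell by 3.27 in the stricter comparison. High and low libraries of Jag2 did not overlap, as was so for 37.2% of all tested genes. The receptor Notch1 was at 81.8, 86.1 and 81.8 against 99.8, 87.4 and 107 (log2 fold change -0.20 ± 0.15, edgeR adjusted p = 0.3), and the coactivator Maml2 fell by 1.30 ± 0.36 with overlapping groups. The target Hes1 was at 333, 312 and 376 against 210.2, 161 and 332 (log2 fold change 0.62 ± 0.11, edgeR adjusted p = 7e-08).

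Ligands of the EGF receptor, which drives epithelial growth and repair, were higher. Of 11 tested genes 6 rose and 2 fell, with a median of 0.66. Areg and Ereg were scarce in low cells and entered through the high group, so the filter favoured their rise. Areg, a ligand of the receptor, was at 26.5, 60.3 and 41.7 in high and 5.36, 3.87 and 2.78 in low cells (log2 fold change 3.46 ± 0.30, edgeR adjusted p = 1.6e-29). Ereg, a second ligand, was at 19.6, 22.8 and 18.4 against 2.01, 1.55 and 0.926 (log2 fold change 3.68 ± 0.45, edgeR adjusted p = 1.2e-14), from 65 UMIs in high and 8 in low cells. Hbegf, a further ligand, was at 79.5, 112 and 55.1 against 28.8, 18.2 and 28.7 (log2 fold change 1.86 ± 0.19, edgeR adjusted p = 2.5e-21). The receptor Egfr was at 63.4, 65.2 and 90.1 against 102, 88.9 and 103 with overlapping groups (log2 fold change -0.45 ± 0.15, edgeR adjusted p = 0.012), a call that DESeq2 did not make (adjusted p = 0.33).

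Most genes of vitamin A handling rose. Of 10 tested genes 6 rose and 1 fell, the 1 being Rdh10, and in the stricter comparison 2 rose and 1 fell of 8. Rbp2, a cellular retinol binding protein, was at 1241, 1330.1 and 1976 in high and 244, 141 and 429.5 in low cells (log2 fold change 2.60 ± 0.12, edgeR adjusted p = 2.2e-27). Of 6 tested cytokine genes 4 rose and 0 fell. Il18, an alarmin of epithelia, was at 100.3, 87.9 and 103 against 33.5, 16.6 and 32.4 (log2 fold change 1.91 ± 0.18, edgeR adjusted p = 3.3e-25), Il33 rose by 2.10 ± 0.34 and the receptor antagonist Il1rn by 2.10 ± 0.34. None of these 3 had enough UMIs for a test in the stricter comparison.

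Genes of sterol and fatty acid synthesis rose almost without exception. Cells make cholesterol and fatty acids under SREBP factors, which bind sterol response elements beside the factor NF-Y, whose site is the CCAAT box. To show where such sites lie, upstream sequences of 2 genes of the list with 3 CCAAT boxes each are printed, which also lie wholly outside the annotated gene. They are from RefSeq (GRCm38.p6) and hold the 250 bases before the start, written on the strand of the gene. Hmgcs1 (chr13:119690101-119690350, plus strand) encodes the synthase that feeds the pathway, and Fasn (chr11:120824548-120824797, minus strand) the fatty acid synthase. Capitals mark CCAAT on either strand and, in Hmgcs1, TCACNCCAC:
Hmgcs1: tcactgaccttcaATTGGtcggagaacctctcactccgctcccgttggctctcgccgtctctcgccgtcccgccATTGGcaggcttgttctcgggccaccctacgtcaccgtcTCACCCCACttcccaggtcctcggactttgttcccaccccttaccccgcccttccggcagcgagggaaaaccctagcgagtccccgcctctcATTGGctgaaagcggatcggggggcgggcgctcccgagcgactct
Fasn: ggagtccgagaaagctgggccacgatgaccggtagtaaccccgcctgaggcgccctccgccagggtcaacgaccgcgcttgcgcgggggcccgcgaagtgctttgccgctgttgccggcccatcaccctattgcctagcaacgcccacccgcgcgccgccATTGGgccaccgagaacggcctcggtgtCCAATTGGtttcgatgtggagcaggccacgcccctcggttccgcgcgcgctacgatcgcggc

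Of the 20 genes of the list 12 had an entry in the RefSeq promoter table. CCAAT (letters CCAAT, both strands, overlaps counted) was found in 9 of these 12, against 37.5% of all genes in the table and 39.9% of those tested here. TCACNCCAC was found in 1, Hmgcs1, where it stood 137 bases before the start, against 1.22% of all genes. These are matches of letters, not shown to be bound.

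Of the 18 genes of the list that were tested 17 rose and 0 fell, with a median of 1.30, where 18.2% of all genes rose. Without top doublet scores all 17 tested rose, and in the stricter comparison 13 of 15 did, with a median of 1.45. Fdps, which makes farnesyl diphosphate, was at 502, 528 and 684 in high and 143, 200.2 and 159 in low cells (log2 fold change 1.74 ± 0.11, edgeR adjusted p = 2.3e-57). High and low groups did not overlap (as was so for 37.2% of all tested genes), and Fdps rose by 2.14 in the stricter comparison.

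The 2 genes with printed upstream sequence changed less. Hmgcs1 was at 173, 155 and 220.3 in high and 93.1, 100.1 and 138 in low cells (log2 fold change 0.72 ± 0.12, edgeR adjusted p = 7.9e-08), and at -0.0057 in the stricter comparison (edgeR adjusted p = 0.99). Fasn was at 34.6, 59.6 and 36.7 against 20.1, 34.8 and 24.99, with groups that overlapped (log2 fold change 0.73 ± 0.20, edgeR adjusted p = 0.0017). They were named for their sequences after their values were seen. Scd2, a desaturase, rose by 0.85 ± 0.11. Acaca, the carboxylase that starts fatty acid synthesis, was the 1 gene that did not pass, at 9.22, 15.99 and 13.4 against 9.37, 6.96 and 13.9 (log2 fold change 0.55 ± 0.34, edgeR adjusted p = 0.2), and it was at -0.0492 without replicate 2.

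Genes of mitosis and of DNA synthesis moved apart in all cells. Of 22 tested genes of G2 and mitosis 21 rose and 0 fell (median 2.11), while of 20 genes of DNA synthesis 0 rose and 14 fell (median -0.71). Mitotic genes scarce in low cells, such as Ccnb1, entered through the high group, so the filter favoured their rise. Top2a, which untangles DNA, was at 113, 67.03 and 127 in high and 27.4, 24.7 and 26.8 in low cells (log2 fold change 1.85 ± 0.18, edgeR adjusted p = 6.8e-24). Ccnb1, the mitotic cyclin, was at 32.3, 31.98 and 85.1 against 6.03, 3.09 and 4.63 (log2 fold change 3.30 ± 0.29, edgeR adjusted p = 2.1e-27). Nusap1, a spindle protein, rose by 2.92 ± 0.29 and Mki67 by 1.79 ± 0.19, while Ube2c was at 157, 223 and 305 against 59.6, 10.4 and 37.95 without passing (log2 fold change 2.82 ± 0.82, edgeR adjusted p = 0.16). Pcna, the clamp of DNA polymerase, was at 66.8, 82.4 and 38.4 against 74.98, 111 and 91.6, with groups that overlapped (log2 fold change -0.52 ± 0.16, edgeR adjusted p = 0.004). Cdca7 fell by 0.50 ± 0.14, Dtl by 1.62 ± 0.41 and Chaf1b by 1.60 ± 0.37. DESeq2 called 0 of the 20 synthesis genes.

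The rise of most mitotic genes could not be tested once cells of top doublet scores or of great depth were left out. Without top doublet scores 3 genes of G2 and mitosis could be tested, of which 0 rose and 1 fell, and without deep cells also 3, with 0 higher and 1 lower. Hmgb2, a chromatin protein of dividing cells, was at 582, 469 and 989.8 against 360.2, 316 and 341 in all cells (log2 fold change 0.92 ± 0.10, edgeR adjusted p = 2.8e-16), at -0.36 without top doublet scores and at -0.48 without deep cells. At 2000 UMIs per cell, the share of cells with a UMI of Mki67 or Top2a was 18.2%, 14.6% and 12.5% in high cells (exact 95% intervals 6.98 to 35.5, 7.80 to 24.2 and 5.18 to 24.1) and 6.20%, 7.95% and 4.91% in low cells. Without thinning it was 27.3%, 43.9% and 26.8% against 12.4%, 21.2% and 13.5%. The difference at 2000 UMIs was 8.75 ± 2.83 percentage points (exact sign-flip p = 0.25, the smallest possible), and -2.55 without top doublet scores. Basal cells stood at 1.71%, 1.36% and 1.86% and conjunctival cells at 0%, 0.595% and 0.582% at the same depth, where 0 of 527 cells in library 1 allows a share of up to 0.569%.

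Inhibitors of the cycle included 3 genes that rose and 4 that fell of 13. Cdkn1a, the inhibitor p21, was at 141, 173 and 174 in high and 52.9, 29.8 and 48.1 in low cells (log2 fold change 1.97 ± 0.15, edgeR adjusted p = 1.2e-37), and rose by 2.40 in the stricter comparison. Cdkn2b, an inhibitor of the G1 kinases, was at 53.01, 36.9 and 45.1 against 10.04, 4.25 and 12.03 (log2 fold change 2.498 ± 0.26, edgeR adjusted p = 3.4e-20). Genes of ribosomal proteins were lower, with 19 of 20 lower, 0 higher and a median of -0.46, and with 15 of 20 lower in the stricter comparison. Rpl13 was at 7309.8, 7453 and 7203 against 10611, 11525 and 11510.5 (log2 fold change -0.61 ± 0.07, edgeR adjusted p = 3.4e-15), Rpl3 fell by 0.73 ± 0.08, Rps6 by 0.67 ± 0.09 and Rplp0 by 0.23 ± 0.08. Near-identical copies of ribosomal protein genes can share reads, so single values are uncertain.

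**Figure D4:**
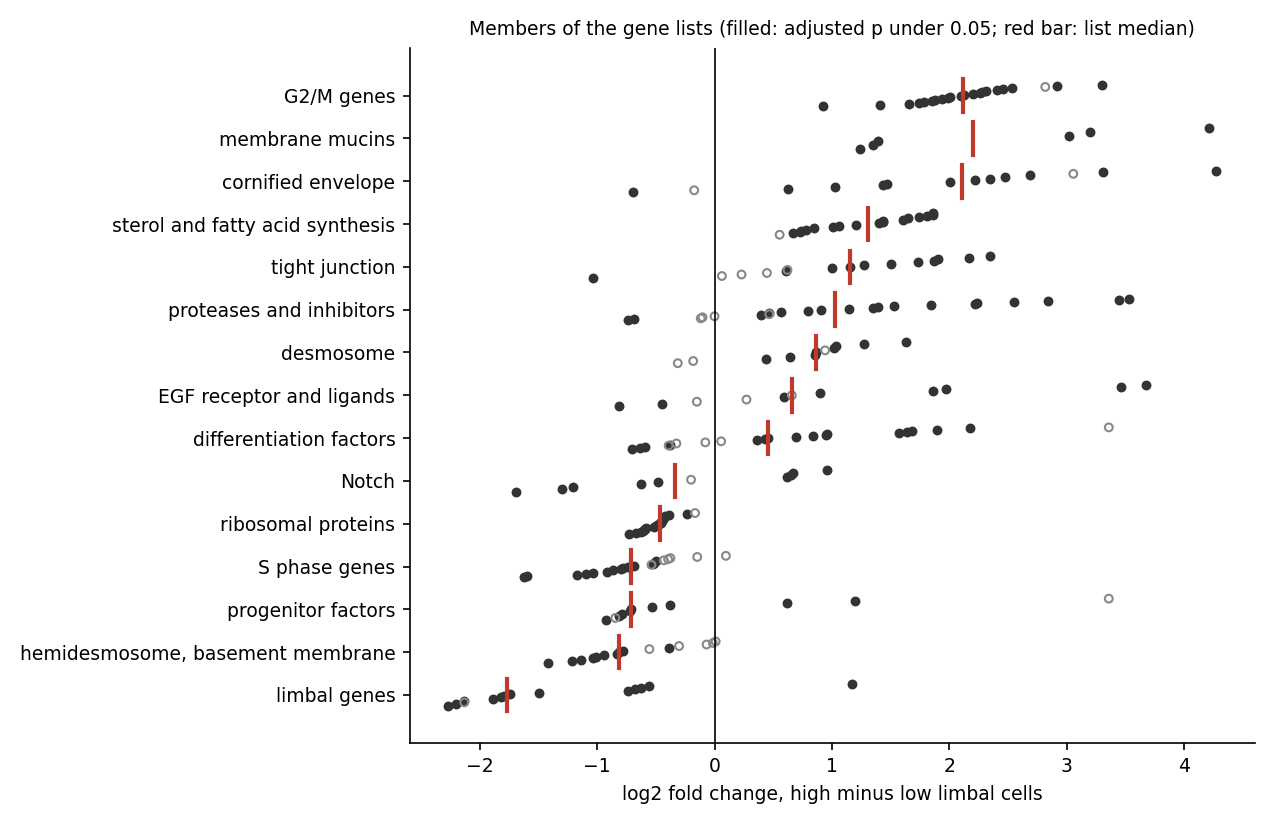
Log2 fold change of high minus low limbal cells (x axis) for each tested member of 15 gene lists (rows); filled points passed an adjusted p of 0.05 and red bars mark list medians. Sterol and fatty acid genes lie right of 0 (median 1.30) and hemidesmosome and limbal genes mostly left (medians -0.81 and -1.77).

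Other lists ranged from glycogen genes, few of which passed, to immediate early genes, whose calls were all higher. Of 15 heat shock genes 6 rose and 4 fell, of 10 glycogen genes 1 rose and 0 fell, and of 13 interferon genes 6 rose and 3 fell. Of 9 antigen presentation genes 3 rose and 1 fell, of 12 immediate early genes 5 rose and 0 fell, of 7 connexin and aquaporin genes 4 rose and 1 fell, and of 5 antimicrobial genes 3 rose and 2 fell. In the stricter comparison these counts were 1 and 1 of 14, 0 and 0 of 3, 1 and 0 of 4, 0 and 0 of 8, 3 and 0 of 10, 1 and 1 of 5, and 1 and 1 of 3.

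Several levels rose or fell along k. Cells were placed in 6 bins, from those with 0 keratin UMIs to those with 60 or more per 10000, and summed per library. Gpha2 fell across all bins, with means of 4864, 3525, 1801, 1639, 725 and 494 CPM. Krt15 rose, with 4042, 5203, 11067, 11570, 13687 and 17197, and Gsto1 rose from 1187 ± 154 to 21907 ± 4458. The sum of the 20 sterol and fatty acid genes rose from 653 ± 153 in the first bin to 1361 ± 110 in the third and 2556 ± 545 in the last. The hemidesmosome sum did not fall in every step, with 2508, 2299, 1713, 1800, 1440 and 1047. For Gpha2, Krt15, Gsto1 and the sterol sum, low cells with some keratin lay between low cells with none and the high cells. These bins follow the measure that defined the groups, hold as few as 7 cells of library 1, and carry no test.

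Signs of doublets and strays did not follow k in the same way. The share of top doublet scores was 5.58%, 13.7% and 16.5% in the 3 low bins, 48.9% and 44.6% from 15 to 60 per 10000, and 18.6% at 60 or more. Krt12 had means of 3624, 5731, 5252, 5998 and 6741 CPM up to 60 per 10000 and stood at 2553 ± 1475 at 60 or more, the lowest of the 6 bins. Of the 59 cells at 60 or more, 26 were closest to the conjunctival class and 30 to the limbal class. Between 15 and 30, none of 47 cells was closest to the conjunctival class and 42 were closest to the limbal class. Col17a1 was at 515 ± 78.3 CPM in that bin and at 213 ± 81.6 at 60 or more.

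**Figure D5:**
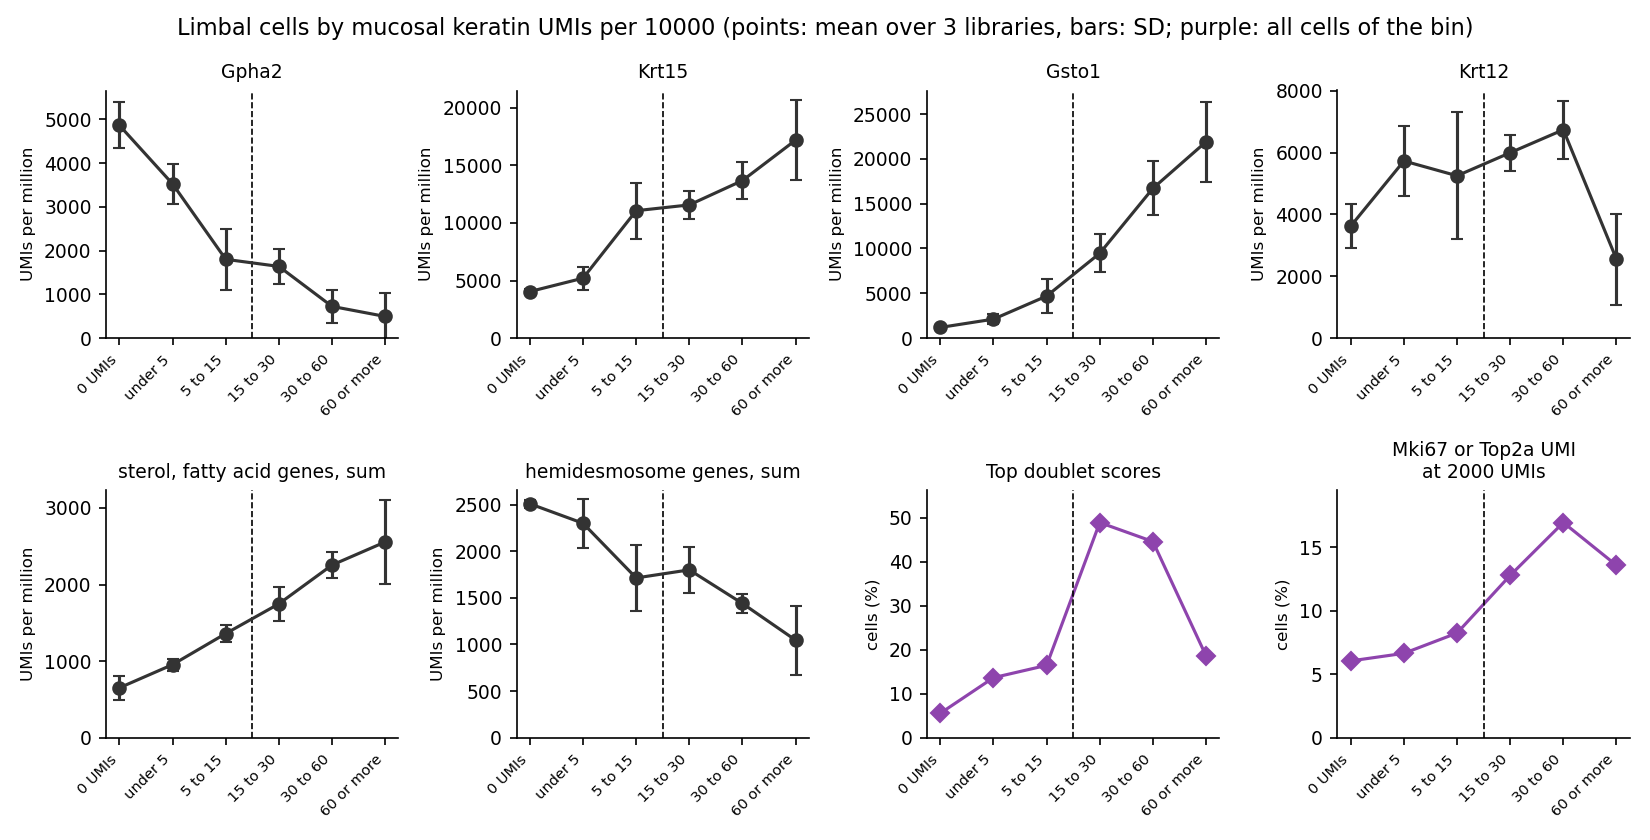
Levels in 6 bins of keratin UMIs per 10000 (x axes); black points and bars give the mean and SD over 3 libraries of summed CPM, and purple points the percentage over all cells of the bin. Gpha2 falls from 4864 to 494 and Gsto1 rises from 1187 to 21907, while top doublet scores peak at 48.9% just right of the dashed line at 15.

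High limbal cells were then compared with conjunctival cells, the class with the highest mucosal keratins, of which 2398 held 2000 or more UMIs. Of 10573 genes 4103 differed (percent called 38.8), 1998 higher in high limbal cells (18.9%) and 2105 lower (19.9%). Values in this comparison are scaled by TMM over these 2 groups. Gpha2 was at 753, 1256 and 461 in high limbal and 91.1, 143 and 59.8 in conjunctival cells (log2 fold change 3.05 ± 0.09, edgeR adjusted p = 3.5e-17). Crip1, a LIM domain protein, was at 299, 476 and 249 against 26.7, 70.97 and 38.8 (log2 fold change 2.95 ± 0.13, edgeR adjusted p = 4.1e-11), and Csrp2, another, at 155, 116 and 66.04 against 13.9, 17.5 and 6.63 (log2 fold change 3.12 ± 0.15, edgeR adjusted p = 2.7e-13). Col17a1 was at 328, 366 and 342 against 75.7, 99.1 and 79.3 (log2 fold change 2.03 ± 0.09, edgeR adjusted p = 8.2e-14). These 4 genes were higher in high limbal cells in every library and under every alternative run in which they were tested.

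Of the listed limbal genes 12 of 15 tested were higher than in conjunctival cells and 1 lower, and of the hemidesmosome genes 11 of 16 higher and 0 lower. All 26 genes of G2 and mitosis were higher, with Ube2c at 139, 201 and 275 against 1.31, 6.86 and 2.52 (log2 fold change 5.77 ± 0.49, edgeR adjusted p = 0.0067). Low limbal cells also stood above conjunctival cells in the share with a UMI of Mki67 or Top2a at 2000 UMIs, with 6.35% ± 1.53 against 0.39% ± 0.34. Stmn1, which destabilises microtubules, was at 287, 296 and 362 against 5.54, 22.2 and 12.98 (log2 fold change 4.56 ± 0.52, edgeR adjusted p = 0.023). Ifitm3 was higher by 2.55 ± 0.27, the transporter Slc6a6 by 2.77 ± 0.15 and the lectin Lgals7 by 2.70 ± 0.21. Krt12 was at 5607, 3697 and 5081 against 4865, 5273 and 5267 with groups that overlapped (log2 fold change -0.12 ± 0.11, edgeR adjusted p = 0.42), and was at 0.0780 without replicate 2. Sums of the 2 groups did not overlap for 44.5% of the genes tested.

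Among the largest falls against conjunctival cells under the naming rule were Tspan1, Slpi and Muc1. Tspan1, a tetraspanin, was at 7.17, 8.87 and 12.01 in high limbal and 67.9, 86.4 and 65.9 in conjunctival cells (log2 fold change -3.09 ± 0.20, edgeR adjusted p = 2.1e-11). Slpi, a secreted protease inhibitor, was at 7.17, 8.31 and 27.02 against 81.00, 68.9 and 114 (log2 fold change -2.80 ± 0.20, edgeR adjusted p = 8.7e-11), and Muc1 at 47.1, 43.2 and 24.02 against 204, 173 and 162 (log2 fold change -2.18 ± 0.13, edgeR adjusted p = 7.9e-12). The alcohol dehydrogenase Adh6a was lower in high limbal cells by 2.49 ± 0.18, the transporter Slc13a2 by 3.07 ± 0.24, the protease inhibitor Cst6 by 2.29 ± 0.11 and Spink5 by 2.34 ± 0.14. Krt15, too, was lower than in conjunctival cells, at 12958, 11005 and 15028 against 29676, 29777 and 24798 (log2 fold change -1.12 ± 0.11, edgeR adjusted p = 2.7e-06). Of 19 sterol and fatty acid genes 0 were higher and 15 lower, and of 9 membrane mucin genes 0 higher and 7 lower. The goblet cell genes summed to 82.7 ± 27.0 CPM in high limbal and 48.0 ± 6.9 in conjunctival cells, without TMM scaling. Spdef, Tff1 and Foxa3 were at 0 in high cells. Agr2 and Fcgbp, the others in the table, did not pass (log2 fold changes 0.41 ± 0.20 and 0.16 ± 0.42, edgeR adjusted p = 0.15 and 0.79).

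Superficial cells of the cornea also hold the 3 keratins, above all Krt13, at 4744 ± 203 CPM without TMM scaling. Against the 5212 superficial cells with 2000 or more UMIs, 7456 of 11034 genes differed (percent called 67.6), 3652 higher in high limbal cells (33.1%) and 3804 lower (34.5%). Gene values in this comparison are scaled by TMM over these 2 groups. The factors were 1.47 to 1.49 for high limbal and 0.651 to 0.696 for superficial sums. Scaling thus lowered the high limbal and raised the superficial values, so falls are larger and rises smaller than in unscaled CPM. Cyp2f2, a cytochrome P450, was at 313, 179 and 187 in high limbal and 0.348, 0.708 and 0.0480 in superficial cells (log2 fold change 9.30 ± 0.28, edgeR adjusted p = 3.4e-13). Krt17 was at 175, 693 and 313 against 6.62, 18.6 and 7.25 (log2 fold change 5.14 ± 0.14, edgeR adjusted p = 4.6e-29), Krt14 at 766, 2402 and 486 against 38.03, 78.1 and 24.4 (log2 fold change 4.55 ± 0.13, edgeR adjusted p = 1.4e-26) and Gpha2 at 563, 937 and 341 against 44.2, 54.2 and 40.03 (log2 fold change 3.65 ± 0.17, edgeR adjusted p = 8.8e-11). Wfdc18 was at 20.7, 362 and 4.44 against 0.0498, 2.48 and 0.0960, with library 2 far above the other two in high limbal cells (log2 fold change 7.19 ± 0.24, edgeR adjusted p = 1.3e-26). Sums of the 2 groups did not overlap for 68.7% of the genes tested, and for each of Cyp2f2, Krt17, Krt14, Gpha2 and Wfdc18.

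Among the largest falls against superficial cells under the naming rule were Lce3a, Lce3f, Tnf and Cd274. Without TMM scaling, the 6 superficial markers summed to 3087 CPM in high limbal cells, against 14294 ± 1229 in superficial and 7511 ± 225 in basal cells. Single genes below are TMM-scaled. Lce3a, a late cornified envelope protein, was at 2.30, 2.89 and 2.22 in high limbal and 5721, 3909 and 1243 in superficial cells, with 12 UMIs in all high cells (log2 fold change -10.54 ± 0.21, edgeR adjusted p = 5.6e-34). Lce3f had 0 UMIs in high cells and 218, 207 and 52.8 CPM in superficial cells. Cnfn, a marker of surface cells, was at 0, 4.55 and 0 against 120.5, 328 and 92.2 (log2 fold change -6.58 ± 0.26, edgeR adjusted p = 1.2e-23). Tnf, an inflammatory cytokine, had 2 UMIs in all high cells and 109, 59.1 and 32.3 CPM in superficial cells. Cd274, an immune checkpoint ligand, had 3 UMIs against 309, 211 and 215 CPM. Muc4 was at 308, 194 and 274 against 3778, 3217 and 3087 (log2 fold change -3.73 ± 0.12, edgeR adjusted p = 1.3e-26), and Krt12 at 4191, 2758 and 3755 against 14144, 17784 and 13105 (log2 fold change -2.08 ± 0.18, edgeR adjusted p = 1.9e-06).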

How the data were processed

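The deposited table gave raw UMI counts, which the authors had not normalised, and the authors' deposited annotation gave the class and library of each cell. The submitters' processing notes name Cell Ranger 5.0.0, Seurat 4 and mm10; their cell filters and doublet handling were not given. Library 1 was matched to its label by elimination. Members and gene lists were chosen with earlier results of these data known. Counts were summed per library and group and tested with edgeR 4.0.16 (R 4.3.3; quasi-likelihood F test, robust, TMM, filterByExpr, library as a block), with Benjamini-Hochberg adjustment over all genes tested. The block pairs cells of the same library, and so of the same pool of animals, by construction. It does not pair cells by single animal. The 3 keratins were left out of tests and of the doublet score (30 principal components, 2000 variable genes). Profiles were compared by multinomial likelihood, and doublets were marked, not removed. Named genes are the 15 largest rises and falls that passed, moved alike in 3 of 3 libraries and reached a mean log2 CPM of 5, without mitochondrial, ribosomal protein and predicted genes. Added are markers and, per list, the 2 tested members highest in level and the 2 that changed most, some of which are not reported here. In a self-test on simulated counts for high against low cells over 8042 genes, 58.95% of 2-fold and 97.75% of 4-fold changes were recovered, and 0.0636% of unchanged genes were called. Every simulated gene had the same fixed dispersion, so these rates need not hold for genes that vary more between libraries. Over all cells the libraries held 9488, 11273 and 17350 cells with medians of 16160, 13232 and 8334 UMIs, and the high sums held 881044, 1625828 and 614227 UMIs. Alternatives were other tools (DESeq2 1.42.0), filters, divisions of k, depths and sets of cells.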

Additional observations from a re-analysis of the deposited data

How the results depend on the processing

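The count of 2860 genes for high against low cells was 1864 with no replicate block, 1066 with DESeq2, 697 at 2000 UMIs per cell, 1280 without deep cells, 1668 without stray cells, 893 without all 3 kinds of marked cells, 1803 with equal cell numbers, 1625 with cells chosen on 50% of UMIs and tested on the other 50%, and 1885 to 2212 without 1 replicate. Most of these fits rest on fewer cells, UMIs or genes, and the cause was not tested further. Against conjunctival cells the 4103 became 2676 with DESeq2, 866 at 2000 UMIs, 2294 without deep cells, 2324 without marked cells and 2930 to 4063 without 1 replicate. Against superficial cells the 7456 became 3095 at 2000 UMIs, 4885 without deep cells, 4755 without marked cells and 6265 to 7169 without 1 replicate. The high share of 23.5% was 31.2% with the division at 7.5 per 10000 and 17.1% at 30. The difference in dividing cells of 8.75 percentage points was -2.55 without top doublet scores and -2.50 without marked cells.

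Directions of named genes turned mostly where doublets or deep cells were left out (log2 fold changes, high minus low). Without top doublet scores Aldh3a1 was -0.46, Hmgb2 -0.36, Irf1 -0.12, Krt12 -1.85, Lypd2 -1.79, Slurp1 -1.16 and Notch1 0.0925. Without deep cells Aldh3a1 was -0.27, Hmgb2 -0.48, Krt12 -0.84, Lypd2 -0.71, Nccrp1 -0.16, Ly6d 0.96 and Notch1 0.0227. Without stray cells Hmgb2 was -0.0913, Irf1 -0.18 and Krt12 -0.13. Without marked cells Aldh3a1 was -0.56, Hmgb2 -0.37, Hmgcs1 -0.0057, Krt12 -1.04, Lypd2 -1.15, Slurp1 -0.23, Ly6d 1.41 and Notch1 0.23. Without dividing cells Aldh3a1 was -0.32, Hmgb2 -0.37, Krt12 -0.58, Lypd2 -0.36 and Slurp1 -0.11. Krt12 was also -0.0459 with the division at 30 and -0.0366 at 2000 UMIs. Without 1 replicate Krt12 was -0.0486 to 0.173, Acaca -0.0492 to 0.778, Cxcl16 -0.234 to 0.0995 and, against conjunctival cells, Krt12 -0.284 to 0.0780.

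With the library block the pairing is by construction, and leaving it out changed 22 calls of named results to not passing and 5 to passing. Sums of 33 to 82 high cells per library limit what can be tested, and sign-flip tests over 3 libraries cannot go below 0.25.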
